A study of Homo sapiens with 6 samples.

Results

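The solute carriers described here are the 171 genes, of 15243 in the table, whose symbol has the form SLC, a number and a letter, once the families of amino acid, mitochondrial and metal carriers were left out. The omitted families are SLC1, 3, 6, 7, 11, 25, 30, 36, 38, 39, 40, 41 and 43. The rule itself uses no measured value, though it was set with earlier results of these data known. What is left spans 36 family numbers and was grouped into 14 classes, each of whole families and named for their main substrates, among them sugar, monocarboxylate, ion, vitamin and nucleotide sugar carriers. SLC2A4RG and SLC4A1AP carry such symbols but encode nuclear proteins and no carrier, so 169 of the 171 are carriers.

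Solute carriers are membrane proteins that move small molecules across the plasma membrane or an organelle membrane, either down their own gradient or coupled to that of sodium or protons. Most are made on ribosomes docked at the endoplasmic reticulum (ER), where their helices enter the membrane during synthesis. Tumour cells depend on several of them: glucose enters by the GLUT family (SLC2), lactate leaves with a proton by the monocarboxylate family (SLC16), and sodium-proton and bicarbonate carriers (SLC9, SLC4) hold the cytosolic pH.

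The series is a ribosome footprint experiment (Ribo-seq) on NCI-H1299, a human lung carcinoma line, with 3 samples labelled shControl and 3 labelled shALDH18A1, a short hairpin RNA against the gene of the proline synthesis enzyme P5CS. The design text names the control as puro, and the labels do not say whether samples are separate cultures or how many hairpins were used. Only a finished comparison of the authors was analysed, which lists per gene a mean normalized count, a log2 fold change, the standard error (SE) of the fold change, and p-values, so no sample's own value, depth or counting interval can be given. The reference group is not stated, so "higher" and "lower" stand for positive and negative fold changes as printed in the authors' deposited table, and neither says which of shControl and shALDH18A1 had more. The name of the table refers to translation efficiency, but no source used here says whether RNA levels entered it. A gene was called at an adjusted p under 0.05, and ± is the table's SE.

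ALDH18A1, the targeted gene, missed the threshold with −0.19 ± 0.12 (adjusted p = 0.173) in the authors' deposited table. Of 16 marker genes of the line, of lung adenocarcinoma and of other cells, 12 are in the table. The keratins KRT8 and KRT18 and vimentin had mean normalized counts of 6396, 6869 and 22046 in the authors' deposited table, whereas EPCAM (11.4), CDH1 (2.0) and NKX2-1 (3.2), markers of lung adenocarcinoma and its epithelium, were near the bottom. Markers of vessel cells and fibroblasts were low too in the authors' deposited table, from 1.6 for PECAM1 to 26.9 for COL1A1. KRT8 and KRT18 were themselves called higher, vimentin and KRT7 (−1.18 ± 0.48 on a mean of 5.3) were called lower in the authors' deposited table, and the other 8 were not called. Their part in the results was not tested.

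More carrier genes were called higher than lower. Of the 171, 94 were called higher, 7 lower and 70 were not called in the authors' deposited table, or 55.0% higher and 4.09% lower. Over all genes, 28.9% were called higher and 29.4% lower. The median log2 fold change was 0.78 for the carrier genes and 0.02 for all genes, and 136 of the 171 values were above 0. At a size of at least 1 on the log2 scale, 60 were called higher and 3 lower, against 14.7% and 8.97% of all genes.

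The difference in calls was also seen among genes with a mean at or above the table's median of 150.2 normalized counts, where the SE is small. Of the 73 carrier genes there, 54 were called higher and 4 lower, with a median of 0.80, against 30.9% and 40.9% of all genes in that range and a median of −0.10. Of the 98 below it, 40 (40.8%) were called higher and 3 (3.06%) lower in the authors' deposited table, and 55 were not called. Of all 7621 genes below it, 2058 were called higher and 1372 lower. The median SE of the carrier genes was 0.42 below it and 0.13 above, and the wider error limits what can be called among the rarer genes. Of the 40 carrier genes with a mean under 10, 35 were not called.

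**Figure D1:**
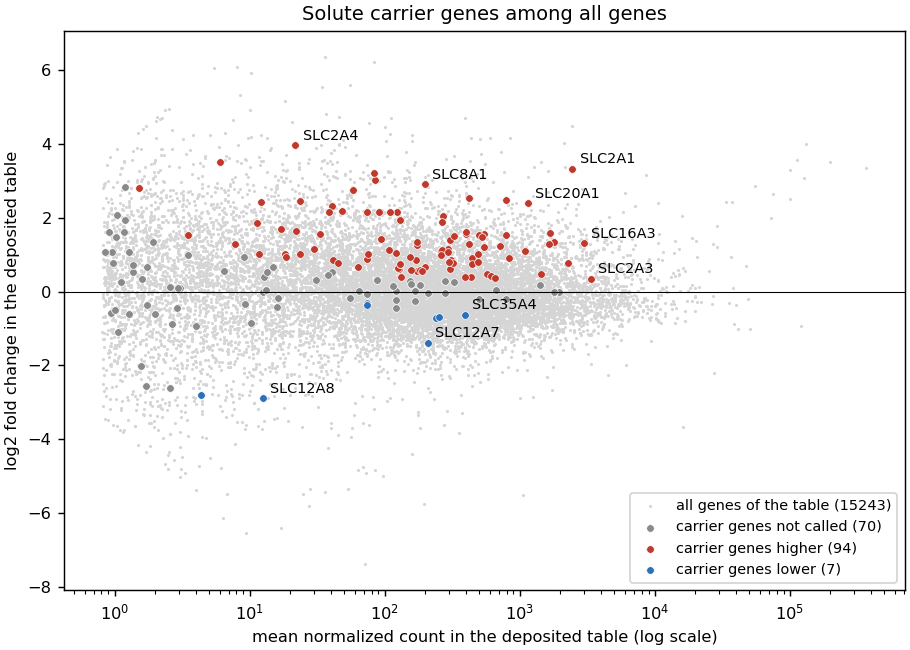
Log2 fold change against mean normalized count (log axis), both from the authors' deposited table, for all 15243 genes (light grey) and the 171 carrier genes, coloured by call. The 94 genes called higher have means from 1.5 to 3372, with only 4 of them under 10, and the 7 called lower include 4 at or above the median of 150.2.

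The other solute carriers of the table were set beside them without a test. Amino acid carriers counted 19 higher, 2 lower and 17 not called of 38 (median 0.62), and metal carriers 11, 4 and 9 of 24 (median 0.33). The SLC25 family, whose members are made in the cytosol and imported into mitochondria, counted 13 higher, 11 lower and 20 not called of 44, with a median of 0.04. Its share of higher calls (29.5%) lay near the 28.9% of all genes in the authors' deposited table.

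**Figure D2:**
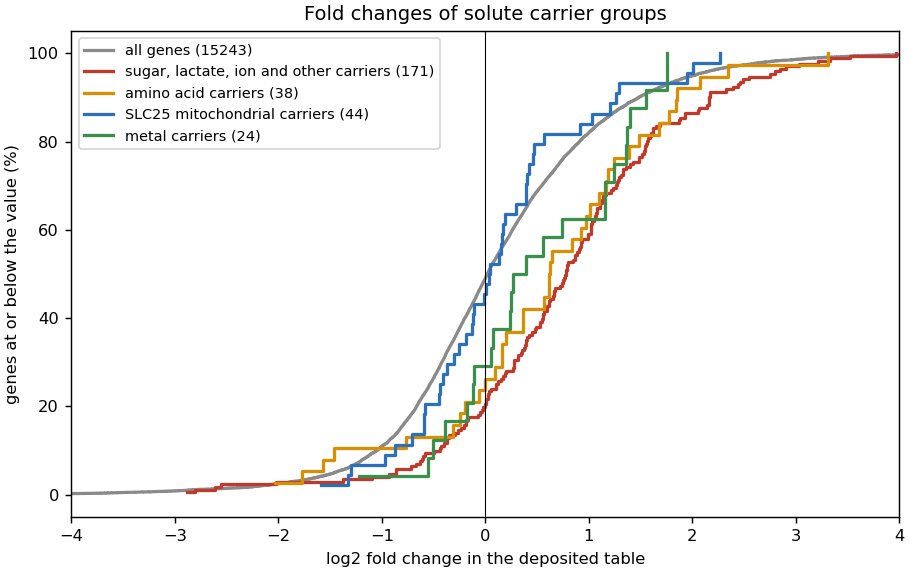
Cumulative share of genes against the log2 fold change in the authors' deposited table, for all genes, the 171 carrier genes and 3 other groups of solute carriers. The SLC25 curve (44 genes, median 0.04) lies near that of all genes (median 0.02), and the curve of the 171 lies to the right of both (median 0.78).

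Promoters are printed for 5 carriers that stand at the ends of the order, to set the DNA around their starts beside their values. They are the 3 highest and 2 lowest called genes at or above the median mean that have a single listed start. Each runs 5′ to 3′ over 300 bases, 250 before the start and 50 after it, from RefSeq on GRCh38.p14. Capitals mark GGGCGG on either strand, the GC box that factors of the Sp1 family bind.
SLC2A1: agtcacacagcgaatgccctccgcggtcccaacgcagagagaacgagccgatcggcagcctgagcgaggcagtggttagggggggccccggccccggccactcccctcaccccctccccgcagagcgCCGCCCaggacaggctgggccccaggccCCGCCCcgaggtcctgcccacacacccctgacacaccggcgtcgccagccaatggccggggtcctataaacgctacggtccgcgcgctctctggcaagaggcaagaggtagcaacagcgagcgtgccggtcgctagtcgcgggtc
SLC35B1: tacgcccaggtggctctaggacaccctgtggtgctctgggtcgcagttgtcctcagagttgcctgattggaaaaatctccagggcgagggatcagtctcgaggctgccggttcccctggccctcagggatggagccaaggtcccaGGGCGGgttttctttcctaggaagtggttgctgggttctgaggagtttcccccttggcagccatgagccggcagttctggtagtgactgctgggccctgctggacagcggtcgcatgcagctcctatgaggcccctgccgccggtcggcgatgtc
SLC20A1: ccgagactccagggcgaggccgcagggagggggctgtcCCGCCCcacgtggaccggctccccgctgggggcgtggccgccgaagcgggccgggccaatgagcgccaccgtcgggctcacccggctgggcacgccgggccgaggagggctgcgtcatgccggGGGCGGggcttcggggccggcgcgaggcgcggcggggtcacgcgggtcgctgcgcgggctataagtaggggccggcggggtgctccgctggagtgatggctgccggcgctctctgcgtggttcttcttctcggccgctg
SLC15A4: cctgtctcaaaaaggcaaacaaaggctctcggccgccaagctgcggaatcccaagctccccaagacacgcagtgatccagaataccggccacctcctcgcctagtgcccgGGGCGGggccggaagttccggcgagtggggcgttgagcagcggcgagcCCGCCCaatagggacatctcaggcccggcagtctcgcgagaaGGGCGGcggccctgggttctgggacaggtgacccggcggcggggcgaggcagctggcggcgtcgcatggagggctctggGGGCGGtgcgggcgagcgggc
SLC12A7: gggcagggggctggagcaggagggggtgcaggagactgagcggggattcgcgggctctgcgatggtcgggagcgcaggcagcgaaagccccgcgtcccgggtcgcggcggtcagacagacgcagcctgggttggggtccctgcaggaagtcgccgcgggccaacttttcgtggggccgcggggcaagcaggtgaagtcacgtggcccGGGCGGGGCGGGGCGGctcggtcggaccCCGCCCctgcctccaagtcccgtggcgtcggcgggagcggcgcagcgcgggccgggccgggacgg

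They lie at chr1:42958819-42959118 (minus strand) for SLC2A1, chr17:49707915-49708214 (minus) for SLC35B1, chr2:112645689-112645988 (plus) for SLC20A1, chr12:128823909-128824208 (minus) for SLC15A4 and chr5:1112014-1112313 (minus) for SLC12A7. All 5 hold the GC box, and the lower genes SLC15A4 and SLC12A7 hold 4 copies each, overlapping copies counted, against 2, 1 and 2 in the higher genes. These 2 are the only ones with the box among the 5 promoters found for genes called lower. SLC20A1 and SLC12A7, which differ in sign, each hold 1 E-box, CACGTG. No copy of ACGTG, a form of the core bound by hypoxia-inducible factors, lies in these 300 bases of SLC2A1. The other form, GCGTG, was not searched for and does occur in the printed bases of SLC2A1. The listed start of SLC12A7 lies inside the span RefSeq gives the gene (chromosome 5, 1050384 to 1155899), so longer transcripts may start elsewhere.

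Of the 171 genes, 135 had a promoter, for which the start farthest upstream was used, and each motif was searched on both strands. GGGCGG was in 80.0% of the 70 promoters of genes called higher, 53.3% of the 60 not called and 67.4% of the 11946 protein-coding genes of the table with a promoter. CCAAT was in 42.9%, 16.7% and 36.8%, and ACGTG in 27.1%, 10.0% and 26%, in that order. Among the 5 of genes called lower, 2 (40%) held each of these motifs. CACGTG, whose matches are also matches of ACGTG, was in 8.57%, 5.00% and 9.94%. Median GC content was 69.0% for the genes called higher, 64.8% for those not called and 64.7% for the genes of the table, and the part of base composition in the motif shares was not tested. Abundance differed as well: of the 70 carrier genes not called, 55 had a mean below the table's median, against 40 of 94 called higher. These counts include genes without a promoter, and the part of abundance in the motif shares was not tested. A start of C followed by 4 pyrimidines, as in mRNAs with a terminal oligopyrimidine motif, was in 4 of the 70 (5.71%) and in 5.10% of the table's genes.

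The sugar class takes in the whole of SLC2, SLC5, SLC37, SLC45 and SLC50, and so also genes with other roles, among them SLC2A4RG, SLC5A6 and SLC5A12. Of its 25 genes, 17 were called higher, none lower and 8 were not called, with a median of 0.77. Its 68.0% called higher stands beside 28.9% of all genes, and its lack of lower calls beside 29.4%. SLC2A1 (Entrez ID 6513, chromosome 1, 42925353 to 42958868), which encodes GLUT1, the main route of basal glucose uptake, stood at 3.33 ± 0.11 in the authors' deposited table. That is a 10.0-fold difference with a 95% interval of 8.68 to 11.6, at an adjusted p of 4.57e-207 and a mean of 2461. SLC2A3 (chromosome 12, 7919230 to 7936187), the high-affinity glucose carrier GLUT3, was higher by much less, at 0.35 ± 0.08 in the authors' deposited table (adjusted p = 1.44e-05), and its log2 interval of 0.20 to 0.50 does not overlap that of GLUT1, 3.12 to 3.54. SLC2A14, a near-identical duplicate that lies 28033 bases from it, was at 0.49 ± 0.11, and how reads were split between the pair is not given, so neither value is certain.

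SLC2A4, the insulin-responsive GLUT4 of muscle and fat, had the highest value of all 171, at 3.97 ± 0.46 in the authors' deposited table, but on a mean of only 21.9. Its interval of 8.34-fold to 29.4-fold overlaps that of SLC2A1. SLC2A11 (0.77 ± 0.21), the lysosomal SLC2A6 (0.74 ± 0.18) and the proton-inositol carrier SLC2A13 (0.59 ± 0.17) were called higher in the authors' deposited table with smaller values. SLC2A8 was not called at −0.24 ± 0.16. SLC2A12 (−0.87 ± 0.71) and SLC2A2 (−1.10 ± 1.83), the GLUT2 of liver, were not called on means of 2.7 and 1.1 in the authors' deposited table. SLC2A4RG, a transcription regulator, stood at 0.27 ± 0.19 and was not called.

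Sodium-coupled carriers of the SLC5 family were called higher in 3 of 6, beside 28.9% of all genes. SLC5A6, which takes up biotin and pantothenate, was at 1.54 ± 0.10 in the authors' deposited table, or 2.91-fold with a mean of 798.7. SLC5A3, the sodium-inositol carrier that accumulates inositol under osmotic stress, was at 1.52 ± 0.15. Its span lies wholly inside that of MRPS6, a mitochondrial ribosomal protein gene on the same strand, which was lower at −0.43 ± 0.09 in the authors' deposited table. The kidney glucose carrier SLC5A2 was at 1.03 ± 0.28, while SLC5A12 (0.00 ± 0.16), a lactate carrier, and SLC5A10 (−0.43 ± 0.33) were not called in the authors' deposited table. SLC5A1, the glucose carrier of gut, was not called at 1.62 ± 1.94 on a mean of 1.2.

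Carriers of sugar phosphates and related sugars were higher as well. SLC37A4, which brings glucose-6-phosphate into the ER, stood at 1.60 ± 0.14 in the authors' deposited table. G6PC3, the ER phosphatase that cleaves it there, was at 1.88 ± 0.13. SLC37A2 (1.28 ± 0.51) and SLC37A3 (0.40 ± 0.18) were called with adjusted p of 0.022 and 0.0423 in the authors' deposited table, and SLC37A1 was not called at 0.11 ± 1.06. SLC50A1, the human SWEET sugar transporter, was at 1.49 ± 0.10, and the proton-coupled SLC45A4 (1.93 ± 0.26), SLC45A1 (1.87 ± 0.81) and SLC45A3 (1.69 ± 0.53) were all called in the authors' deposited table.

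The monocarboxylate class, made of the whole SLC16 and SLC13 families whatever their substrates, counted 8 higher, none lower and 6 not called of 14, with a median of 0.70. Its share called higher was 57.1%, beside 28.9% higher and 29.4% lower over all genes. SLC16A1 (MCT1) and SLC16A3 (MCT4), the main lactate carriers of tumour cells, had nearly the same value, 1.33 ± 0.09 and 1.31 ± 0.14 in the authors' deposited table, at means of 1811 and 3008. Their partner BSG (basigin), the glycoprotein that escorts both to the cell surface, was at 2.06 ± 0.12 on a mean of 15987, and EMB (embigin), a related escort, at 1.38 ± 0.26 in the authors' deposited table. SLC16A3 shares 1068 bases, 4.82% of its span, with CSNK1D, which was lower at −0.73 ± 0.10.

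Larger values belonged to other SLC16 genes. SLC16A10, which carries aromatic amino acids, stood at 3.03 ± 0.35 in the authors' deposited table, or 8.15-fold. SLC16A9 (2.16 ± 0.19) and SLC16A13 (2.16 ± 0.27) followed, and SLC16A5 was at 0.67 ± 0.20 in the authors' deposited table. SLC13A3, a sodium-dicarboxylate carrier, was at 0.61 ± 0.11. SLC16A6 was not called at 0.32 ± 0.25, and its whole span lies within that of ARSG (2.14 ± 0.38 in the authors' deposited table). SLC16A4, SLC16A8, SLC16A11, SLC16A12 and SLC13A4 were not called on means between 1.0 and 4.0, with values from −0.93 to 0.72 in the authors' deposited table.

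**Figure D3:**
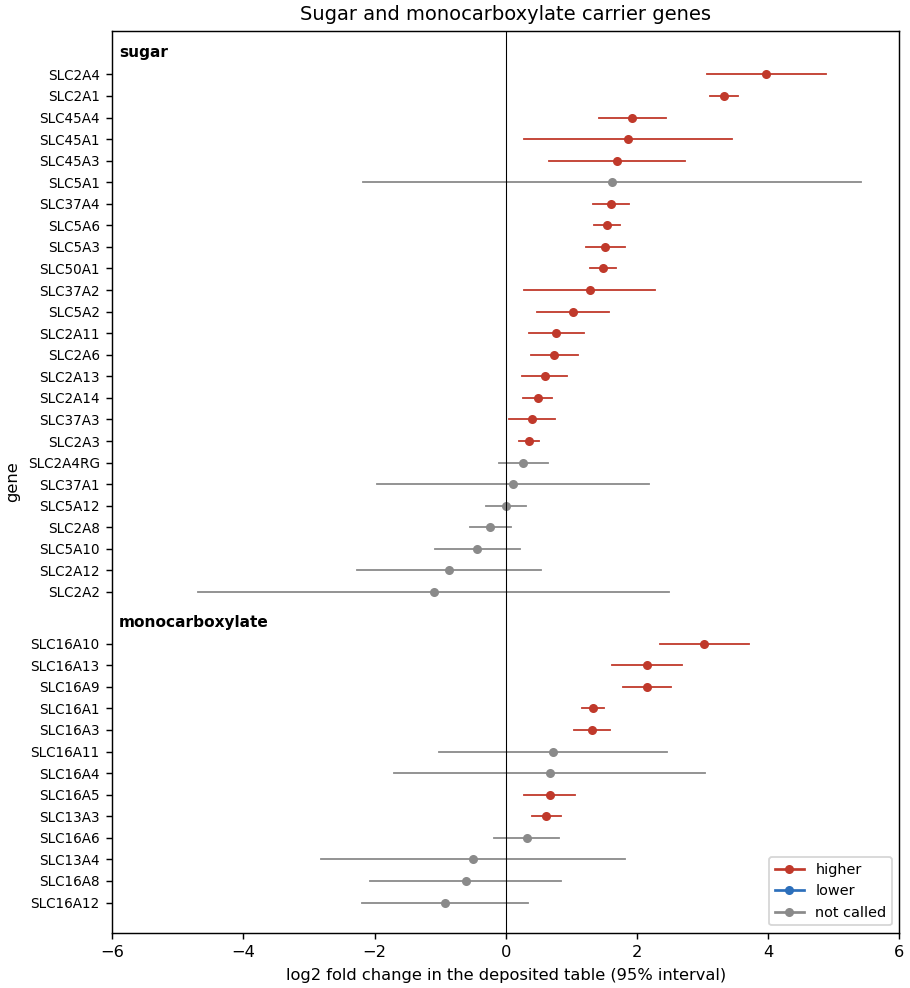
Log2 fold change with its 95% interval, from the authors' deposited table, for the 25 genes of the sugar class and 13 of the 14 of the monocarboxylate class, ordered by value and coloured by call. No gene of either class is called lower, and SLC2A1 stands at 3.33 while SLC2A3 stands at 0.35.

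Ion carriers held calls of both signs. The bicarbonate and anion class counted 5 higher, 2 lower and 9 not called of 16, with a median of 0.24. Its 31.2% called higher lies near the 28.9% of all genes, and its 12.5% called lower stands beside 29.4%. SLC4A7, a sodium-bicarbonate importer (chromosome 3, 27372723 to 27484384), was the clearest at 1.59 ± 0.10 in the authors' deposited table (adjusted p = 2.00e-55, mean 1682). SLC4A2, the anion exchanger that exports bicarbonate, had a similar mean of 1946 in the authors' deposited table and was not called, with −0.00 ± 0.12 (adjusted p = 0.99). Both intervals are narrow, 1.40 to 1.79 and −0.23 to 0.23, and do not overlap. SLC4A11 (2.33 ± 0.29) and the sodium-dependent chloride-bicarbonate exchanger SLC4A8 (1.05 ± 0.18) were called higher in the authors' deposited table, and the sodium-bicarbonate cotransporter SLC4A4 was not, at 0.54 ± 0.28. SLC4A3 (−0.40 ± 0.39), SLC4A5 (0.10 ± 0.69) and the nuclear protein gene SLC4A1AP (−0.20 ± 0.09, adjusted p = 0.0554) were not called in the authors' deposited table.

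Of the SLC26 anion exchangers, the sulfate carrier SLC26A2 was at 1.40 ± 0.15 and SLC26A6 at 1.11 ± 0.15 in the authors' deposited table. SLC26A11 was lower at −0.72 ± 0.10, and SLC26A7 at −2.81 ± 0.80 on a mean of only 4.4 in the authors' deposited table. SLC26A1 (0.93 ± 0.68), SLC26A3 (−0.59 ± 1.66), SLC26A4 (0.39 ± 0.40) and SLC26A8 (−2.61 ± 1.23) were not called in the authors' deposited table. The cytosolic carbonic anhydrase CA2, which supplies bicarbonate, was lower at −0.68 ± 0.10.

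Sodium-proton and calcium carriers counted 8 higher, 1 lower and 8 not called of 17 (median 0.78). That is 47.1% higher and 5.88% lower, beside 28.9% and 29.4% of all genes. SLC8A1, the plasma membrane sodium-calcium exchanger (chromosome 2, 40097270 to 40512435), was at 2.91 ± 0.17 in the authors' deposited table, or 7.49-fold with a mean of 198.9. SLC8B1, its mitochondrial relative, was not called at 0.20 ± 0.18 on a mean of 155.9 in the authors' deposited table. Of the sodium-proton exchangers, SLC9B1 was at 1.36 ± 0.16 and SLC9A5 at 1.64 ± 0.39 in the authors' deposited table. The endosomal exchanger SLC9A7 (0.78 ± 0.11) was called higher too, as was SLC9B2 (0.60 ± 0.15).

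SLC9A3, the exchanger of gut and kidney, was not called in the authors' deposited table, at 0.02 ± 0.16, nor was the Golgi exchanger SLC9A8 at −0.30 ± 0.21. SLC9A2 (0.99 ± 0.80), SLC9A9 (−0.43 ± 1.34), SLC9C1 (0.35 ± 0.87), SLC8A2 (−0.61 ± 1.20) and SLC24A3 (1.08 ± 1.42) had means under 10 in the authors' deposited table and were not called. SLC24A1 was at 0.88 ± 0.27, and SLC24A5, an exchanger of pigment organelles, was slightly lower at −0.37 ± 0.15 (adjusted p = 0.0229) in the authors' deposited table. The last overlaps MYEF2 (−0.51 ± 0.10) over 37.1% of its span. CHP1, the calcium-binding subunit of plasma membrane sodium-proton exchangers, was not called at −0.04 ± 0.09.

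Cation-chloride cotransporters set cell volume and chloride, and calls among them had both signs. SLC12A9 was higher at 0.90 ± 0.10 and SLC12A7 (KCC4) lower at −1.38 ± 0.16 in the authors' deposited table. SLC12A8 was at −2.89 ± 0.50, the lowest of the 171, on a mean of 12.6 in the authors' deposited table. SLC12A2 (NKCC1), which brings chloride in, was not called at 0.04 ± 0.12, nor was SLC12A4 (KCC1), which lets it out, at 0.00 ± 0.10 in the authors' deposited table. The neuronal KCC2 gene SLC12A5 was at −0.02 ± 0.48. The class of 7 genes counted 2 higher, 2 lower and 3 not called, with a median of 0.00. Both shares, 28.6%, lie near those of all genes, 28.9% and 29.4%, so the counts do not set the class apart from the table.

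Of the 7 kinases and scaffold genes measured that control these cotransporters, 1 was higher, 4 lower and 2 not called. These shares, 14.3% higher and 57.1% lower, stand beside 28.9% and 29.4% of all genes. Of the 7, 4 had a mean at or above the table's median, where 40.9% of all genes were called lower. OXSR1 (−0.81 ± 0.08) and STK39 (−0.39 ± 0.11), which phosphorylate the cotransporters, and their activator WNK1 (−0.43 ± 0.13) were lower in the authors' deposited table. WNK2 was lower at −0.54 ± 0.16 and WNK3 higher at 1.04 ± 0.26, while CAB39 (0.06 ± 0.16) and WNK4 (0.01 ± 0.12) were not called in the authors' deposited table.

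**Figure D4:**
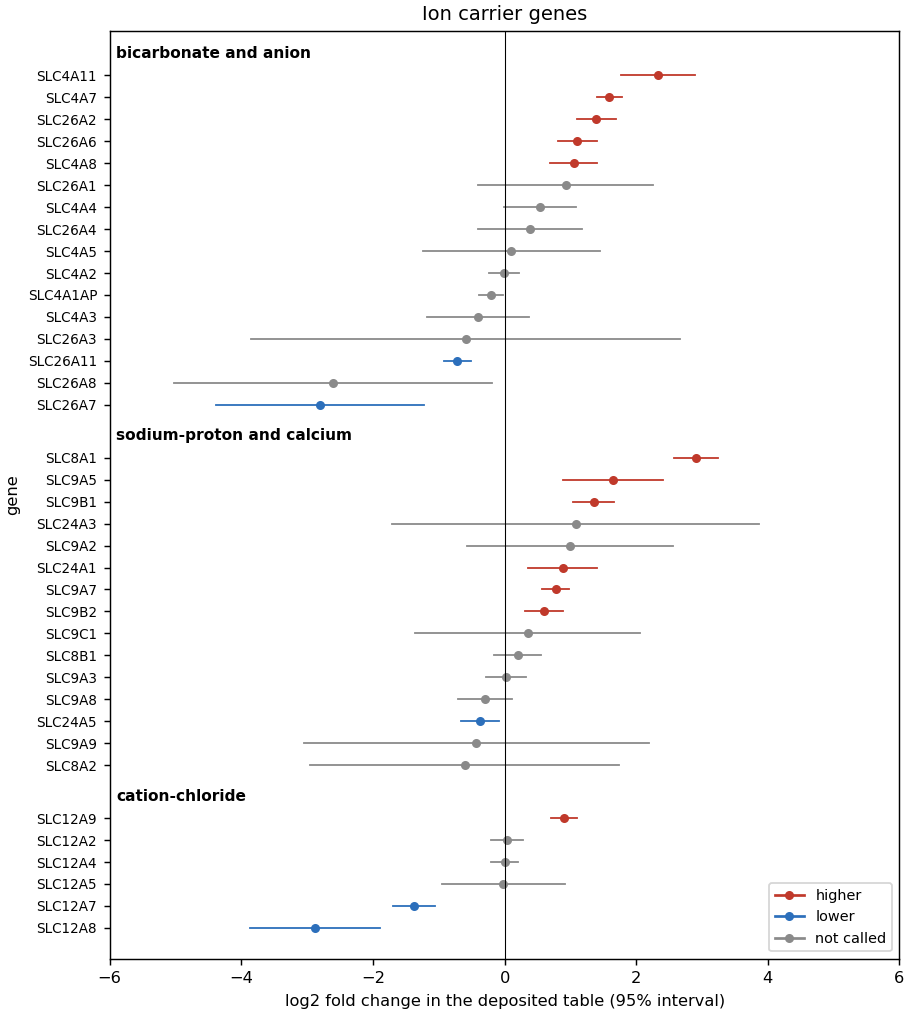
Log2 fold change with its 95% interval, from the authors' deposited table, for genes of the bicarbonate and anion (16 of 16 drawn), sodium-proton and calcium (15 of 17) and cation-chloride (6 of 7) classes, coloured by call. SLC4A7 and SLC4A2 do not overlap (1.59 and −0.00), and SLC12A9 and SLC12A7 lie on opposite sides of 0.

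The beta subunits of the sodium pump, whose gradient drives the sodium-coupled carriers, were called higher. ATP1B1 and ATP1B3 were at 1.20 ± 0.15 and 1.5 ± 0.11 in the authors' deposited table, and ATP1B2 was called at 3.56 ± 1.36 on a mean of 1.3. The cytosolic enzymes on either side of glucose and lactate transport had small or opposite values. HK1 was lower at −0.88 ± 0.10, HK2 higher at 0.51 ± 0.09, LDHA at 0.19 ± 0.09 and LDHB at 0.16 ± 0.06 in the authors' deposited table, and HIF1A, a regulator of GLUT1 and MCT4 transcription, was at 0.24 ± 0.09. TESC, another partner of the sodium-proton exchangers, had a mean of 1.1 in the authors' deposited table and was not called, with −0.28 ± 0.97. Of the 34 partner genes listed, 25 are in the table, with 13 higher, 6 lower and 6 not called.

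Phosphate and organic anion carriers counted 4 higher and 4 not called of 8 (median 1.00), beside 28.9% higher and 29.4% lower over all genes. SLC20A1 (chromosome 2, 112645939 to 112663825), the sodium-phosphate importer PiT1, was at 2.40 ± 0.09 in the authors' deposited table, or 5.26-fold with an interval of 4.67 to 5.93 (adjusted p = 2.11e-161, mean 1152). SLC20A2 (PiT2), which carries the same substrate, was at 0.86 ± 0.14, and the intervals do not overlap. SLC17A5 (sialin), which exports sialic acid from lysosomes, was at 1.55 ± 0.11 and the vesicular glutamate carrier SLC17A7 at 0.93 ± 0.40 in the authors' deposited table. SLC17A1 (1.08 ± 2.37), SLC17A4 (0.78 ± 2.12), SLC17A8 (−2.02 ± 1.03) and SLC34A2 (1.62 ± 1.98) were not called, with means in the authors' deposited table no higher than 1.6.

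Vitamin, nucleoside and cofactor carriers counted 11 higher, none lower and 9 not called of 20, with a median of 1.04. The share called higher was 55.0%, beside 28.9% higher and 29.4% lower over all genes. SLC19A1, the reduced folate carrier, was at 2.55 ± 0.18 in the authors' deposited table, or 5.84-fold. It shares 18.5% of its span with COL18A1 (−0.45 ± 0.09), which lies on the opposite strand. The proton-coupled folate carrier SLC46A1 (1.57 ± 0.30) and the thiamine carriers SLC19A2 (0.80 ± 0.15) and SLC19A3 (1.02 ± 0.33) were called higher in the authors' deposited table. SLC52A2, the main riboflavin carrier, was at 0.78 ± 0.11 on a mean of 2299.

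The equilibrative nucleoside carriers SLC29A1 (1.28 ± 0.08), SLC29A2 (2.14 ± 0.28) and SLC29A4 (2.17 ± 0.28) were called higher in the authors' deposited table, whereas the lysosomal SLC29A3 was not, at −0.18 ± 0.47 on a mean of 16.2. SLC46A3 (1.43 ± 0.17), SLC49A4 (1.07 ± 0.13) and the heme carrier SLC48A1 (0.55 ± 0.10), all of endosomes or lysosomes, were called higher in the authors' deposited table. The ascorbate carrier SLC23A2 (−0.04 ± 0.15) and the nucleoside carrier SLC28A3 (0.15 ± 0.20) were not called on means of 208.2 and 115.7 in the authors' deposited table.

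Carriers of nucleotide sugars and their relatives (SLC35), which mostly sit in the ER and Golgi and feed glycosylation, were called higher in 19 of 25, with 1 lower, 5 not called and a median of 0.76. SLC35B1, which exchanges ATP for ADP across the ER membrane, was at 2.49 ± 0.18 in the authors' deposited table, or 5.61-fold on a mean of 794.7. SLC35G1 (chromosome 10, 93893978 to 93909830) was at 3.22 ± 0.19 and SLC35D1, which carries UDP-glucuronic acid, at 1.26 ± 0.12 in the authors' deposited table. SLC35E1 (1.02 ± 0.08), SLC35F2 (1.10 ± 0.16) and the sulfate donor carrier SLC35B2 (0.91 ± 0.12) followed. The CMP-sialic acid carrier SLC35A1 (0.86 ± 0.27), the UDP-galactose carrier SLC35A2 (0.76 ± 0.09) and the UDP-N-acetylglucosamine carrier SLC35A3 (0.56 ± 0.17) were called higher, with smaller values, in the authors' deposited table.

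SLC35A4 (chromosome 5, 140564828 to 140569100) was the single SLC35 gene called lower, at −0.63 ± 0.09 in the authors' deposited table (adjusted p = 6.46e-12, mean 391.5). Its mRNA is known for upstream open reading frames that limit ribosome access to the carrier's own frame, and gene-level counts cannot place footprints in either. SLC35B3 (−0.05 ± 0.15), which carries the same sulfate donor as SLC35B2, was not called, nor were SLC35B4 (0.03 ± 0.14), the GDP-fucose carrier SLC35C1 (0.19 ± 0.20), SLC35E3 (0.28 ± 0.16) and SLC35G2 (0.17 ± 0.18) in the authors' deposited table.

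Lipid and choline carriers counted 7 higher, none lower and 4 not called of 11 (median 0.61). Their share called higher was 63.6%, beside 28.9% higher and 29.4% lower over all genes. The choline carriers SLC44A1 and SLC44A2 were at 2.05 ± 0.14 and 1.88 ± 0.15 in the authors' deposited table, while SLC44A3 and SLC44A5 were not called at −0.07 ± 0.16 and 0.06 ± 0.44. Among fatty acid transport proteins, SLC27A2 (2.16 ± 0.22), SLC27A4 (1.23 ± 0.16) and SLC27A1 (1.13 ± 0.20) were called higher in the authors' deposited table. SLC27A6 (0.61 ± 0.21) and the ER acetyl-CoA carrier SLC33A1 (0.40 ± 0.18, adjusted p = 0.0473) were nearer the threshold in the authors' deposited table.

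Bile acid and organic ion carriers counted 9 higher, none lower and 7 not called of 16, with a median of 1.02, beside 28.9% higher and 29.4% lower over all genes. Classes differ in abundance: 4 of these 16 had a mean at or above the table's median, against 19 of the 25 of SLC35. SLC47A1, an exporter of organic cations, was at 2.75 ± 0.29 in the authors' deposited table, and SLC10A7, which is needed for glycosylation and calcium balance, at 2.46 ± 0.51. SLC10A3 (1.21 ± 0.16) and SLC10A4 (1.16 ± 0.15) were called higher on larger means, 544.2 and 296.1, and SLC22A18, listed in RefSeq as SLC67A1, was at 0.65 ± 0.11 in the authors' deposited table. SLC10A5 had a high value, 3.52 ± 0.91, on a mean of 6.1. The carnitine importer SLC22A5 was not called at −0.27 ± 0.14 (adjusted p = 0.0845), nor was its neighbour SLC22A4 at 0.45 ± 0.37 in the authors' deposited table.

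The small classes were uneven. The copper importer SLC31A1 (CTR1) was at 1.56 ± 0.19 and its relative SLC31A2 at 0.40 ± 0.16 in the authors' deposited table. SLC18B1, a vesicular polyamine carrier, was at 2.17 ± 0.14, and the vesicular monoamine carrier SLC18A2 at 1.54 ± 0.63 on a mean of 3.5 in the authors' deposited table. The peptide carriers of SLC15 had no higher call: the lysosomal SLC15A4, which carries histidine and peptides, was lower at −0.68 ± 0.14, and SLC15A1 (−2.55 ± 1.88), SLC15A2 (1.93 ± 1.60) and SLC15A3 (−0.35 ± 0.44) were not called in the authors' deposited table. The lysosomal SLC66A1 (−0.19 ± 0.13) was not called either, nor were its relatives SLC66A2 (0.28 ± 0.18) and SLC66A3 (0.32 ± 0.15).

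**Figure D5:**
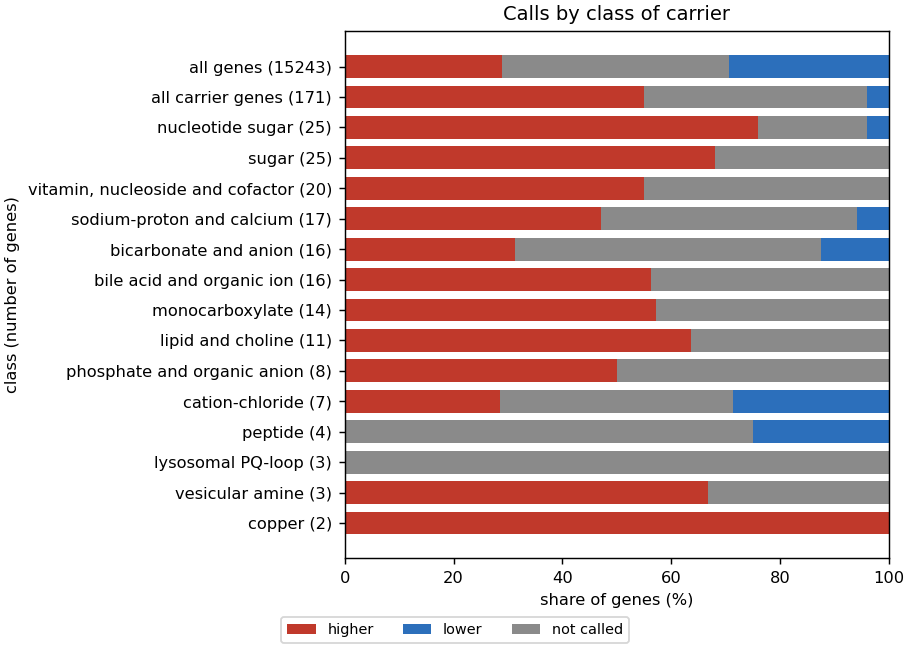
Share of genes (%) called higher, not called and called lower in the authors' deposited table, for all 15243 genes, the 171 carrier genes and each of the 14 classes, with the number of genes in parentheses. The nucleotide sugar class has 19 of 25 higher, and the cation-chloride class has 2 higher and 2 lower of 7.

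Neighbouring paralogs did not always share a value. SLC31A1 and SLC31A2 lie 57403 bases apart on chromosome 9 and their intervals do not overlap, and neither do those of SLC9B1 and SLC9B2 in the authors' deposited table, which share 1677 bases of span. Intervals did overlap for SLC2A14 and SLC2A3, SLC16A13 and SLC16A11, SLC22A4 and SLC22A5, SLC17A1 and SLC17A4, and SLC26A4 and SLC26A3, several with wide errors. Footprints of genes that overlap on opposite strands cannot be told apart where the counting ignored strand, which is not stated. SLC9B1 and SLC9B2 lie on the same strand, where strand would not separate them. The overlaps are of gene spans, and whether exons are shared was not examined. Of the 40 carrier genes whose span overlaps another gene of the table, 26 were higher, 2 lower and 12 not called, and of the 131 others 68, 5 and 58, with medians of 0.89 and 0.74.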

How the data were processed

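Ribo-seq was carried out on 6 samples, 3 shControl and 3 shALDH18A1, grouped by their titles. The submitters' processing notes name featureCounts, STAR (version 2.7.10a), fastp (version 0.23.2) and the build hg38. Settings, annotation, strandedness and model: not given in the sources used here. The only file is a comparison table with 15244 entries and 0 columns of values per sample.

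Per the file headers, the deposited values are a mean normalized count (a signal on a size-factor scale), a log2 fold change with its SE (base taken as 2 from the column layout), a statistic, which is a score, and p-values. The deposited score equals fold change over SE (largest difference 1.49e-13). The deposited adjusted p-values equal Benjamini-Hochberg values (largest difference 7.42e-06). A symbol listed more than once kept its smallest p, leaving 15243 genes, and no list or gene set was tested. Intervals are 95% normal intervals from the deposited SE and leave out any spread the SE does not hold. All 171 members matched RefSeq (GRCh38.p14) by Entrez ID, 2 under another symbol.

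The members, classes, partner genes and markers were chosen with earlier results of these data known. Genes were named by rule: every member of SLC2, SLC4, SLC5, SLC9, SLC12 and SLC16, in other classes the 6 with the smallest p and the most abundant (all in classes of up to 8), every abundant member past 1 on the log2 scale, and the partners. The rule gave 108 members. Some genes it names are not reported here, though counts include them. Other genes named were chosen after their values were seen. Alternatives were other thresholds, fold minimums and adjustments, centring, abundant genes and protein-coding genes. The steps were tested on simulated data. Tables were handled with pandas 2.3.3 and numpy 2.4.6, intervals came from scipy 1.17.1, and figures from matplotlib 3.10.9, under Python 3.11.15.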

Additional observations from a re-analysis of the deposited data

How the results depend on the processing

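The excess of higher over lower calls among the 171 carrier genes held its direction under every alternative run. Most runs only apply other cut-offs to the same fold changes and p-values, so they are not independent checks. Higher calls were 84 at an adjusted p under 0.01, 97 under 0.1, 84 at 1.5-fold or more, 81 with Benjamini-Yekutieli adjustment, 92 after centring on the median of all genes and 94 over protein-coding genes. They moved by over 1.5 times to 60 at a minimum of 1 on the log2 scale, 62 with Bonferroni adjustment and 54 among the 73 genes at or above the median mean, each of which calls fewer genes by construction. Lower calls, 7 in the report, moved to 12 at an adjusted p under 0.1 and 3 at a minimum of 1 on the log2 scale, and were otherwise 5 to 9. By the authors' marks, added after seeing the data, 60 were higher and 5 lower. The median of 0.78 was 0.76 after centring, 0.80 among abundant genes and 0.74 without the 40 genes that overlap another, the last also added after seeing the data. No named carrier gene changed sign while called, but only centring alters a fold change, by the all-gene median of 0.02. The stable signs are therefore no test. Of the 108 named by rule, 20 lost their call at a minimum of 1 on the log2 scale and 14 with Bonferroni adjustment. No paired analysis was possible because the table holds no values per sample, and for the same reason no replicate could be left out. No library's depth is known, and the deposited SE is the one measure of precision.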

Other observations

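Grouped by the membrane where the protein is known to reside, a grouping made after the values were seen and covering 91 of the 171 genes, plasma membrane carriers had the highest median of the 3 groups with over 2 genes. Of 62 such genes, 34 were called higher and 1 lower in the authors' deposited table, with a median log2 fold change of 1.08. Of 13 of the ER and Golgi, 9 were higher and none lower, with a median of 0.56. SLC35A4, of the SLC35 family that mostly sits there, was called lower at −0.63 ± 0.09. It was given no location and is not among the 13. Of 13 of endosomes and lysosomes, 7 were higher, 1 lower and 5 not called, with a median of 0.55. The single mitochondrial member, SLC8B1, and the 2 nuclear proteins, SLC2A4RG and SLC4A1AP, were not called in the authors' deposited table. By share called higher the order differs: 54.8% for the plasma membrane, 69.2% for the ER and Golgi and 53.8% for endosomes and lysosomes. The share over all genes was 28.9%. Of the 62 plasma membrane genes, 29 had a mean at or above the table's median, against 12 of 13 and 7 of 13 in the other groups. The difference between these groups was not tested. Of the 80 genes given no location, 44 were called higher and 5 lower.

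Within several pairs that share a substrate, one gene had a larger value than the other in the authors' deposited table. GLUT1 and GLUT3 differ in this way, as do PiT1 and PiT2, CTR1 and its relative SLC31A2, and the sulfate donor carriers SLC35B2 and SLC35B3. The lactate carriers MCT1 (SLC16A1) and MCT4 (SLC16A3) are a pair with like values, 1.33 ± 0.09 and 1.31 ± 0.14. Intervals also overlap for the choline carriers SLC44A1 (2.05 ± 0.14) and SLC44A2 (1.88 ± 0.15). The same holds for the thiamine carriers SLC19A2 (0.80 ± 0.15) and SLC19A3 (1.02 ± 0.33). The pairs are examples, and differences within them were not tested.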
